A study of Mus musculus with 45 samples.

Results

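Globin and erythroid transcripts, which come from red cells held in the tissue, were followed in mouse forelimb buds kept in culture. The set has 9 of the 35272 genes in the joined tables, chosen by symbol: the embryonic globins Hba-x, Hbb-y and Hbb-bh1, the adult globins Hba-a1, Hba-a2, Hbb-bs and Hbb-bt, and the red cell genes Alas2 and Slc4a1. All 9 were found. Forelimb buds were taken from CD1 mouse embryos on gestation day 13, with male and female limbs together in each bottle. They were cultured for 3, 24 or 48 h with the solvent DMSO as control, with 1 µM bisphenol AF (BPAF) or with 5 µM BPAF, which gave 9 groups of 5 poly-A messenger RNA libraries, 45 in all. BPAF is a relative of bisphenol A that carries fluorine and is used in making plastics. An explanted limb is cut off from the embryo's circulation. In the labels, the treatment text writes out bisphenol A where the titles give BPAF. A characteristic of 1 µM 3 h replicate 5 names 10 uM BPA, and the 1 µM 3 h comparison called 0 members with and without that library. For the first and second 1 µM libraries at 48 h, library code and title disagree on the replicate number, and the title was followed. Whether replicates were separate litters or culture days is not in the labels, and p-values therefore cover the spread among these libraries only, which may be technical.

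Haemoglobin is a tetramer of alpha and beta globin chains, each holding a haem group. Primitive red cells, made in the yolk sac, circulate with their nuclei, carry embryonic chains and lose these nuclei in the bloodstream. Definitive red cells, made in the fetal liver, carry adult chains and enter the blood without a nucleus. Both kinds are in the circulation at midgestation, so a limb bud cut from the embryo holds a mixture of them in its vessels. Which kind a globin read came from was not measured. The embryonic and adult shares below are therefore not shares of primitive and definitive cells. Mature red cells make little or no new messenger RNA, and their transcripts decay with age.

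Read totals lay between 14901842 and 25154115 per library (median 17820524). The sum of the gut epithelium genes Sis, Mgam, Alpi and Apob was 48.0 to 136 CPM (reads scaled to library size) in 9 libraries, 1 in each group, and at most 1.24 in the other 36. The 9 libraries were replicate 1 at 3 h and replicate 5 at 48 h, at every dose and in control. At 24 h they were replicate 1 in control and at 1 µM and replicate 5 at 5 µM. Each comparison below was also fitted without those 9 libraries. The forelimb gene Tbx5 stood at 292 ± 7.83 CPM and the hindlimb gene Pitx1 at 4.88 ± 1.76 CPM in control libraries at 3 h (SD, n = 5). CPM values are scaled with TMM, which corrects for differences in composition between libraries. In bulk samples such as these, fewer red cells and less RNA per red cell cannot be told apart.

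The globin genes lie in 2 clusters. In build mm10, the alpha cluster on chromosome 11 holds Hba-x (chr11:32276400-32278116), Hba-a1 (chr11:32283511-32284465) and Hba-a2 (chr11:32296489-32297298), all on the plus strand. The beta cluster on chromosome 7 holds Hbb-y (chr7:103851749-103853216), Hbb-bh1 (chr7:103841637-103843164), Hbb-bs (chr7:103826534-103828096) and Hbb-bt (chr7:103812524-103813996), all on the minus strand. In both clusters the embryonic genes come first in the direction of transcription. Alas2 lies on the X chromosome (chrX:150547375-150570638, plus strand) and Slc4a1 on chromosome 11 (chr11:102348824-102366203, minus strand).

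RefSeq promoter sequence (GRCm38.p6) was held for 7 of the 9 members, and the 150 bases before each RefSeq start were searched on both strands for GATAA (the site of the GATA factors), CACCC (bound by the KLF factors), CCAAT and TATAA. Any part of promoter activity in the changes below was not tested, and the sequences are given as a description. Stretches outside the exons of the gene in GENCODE M21 are printed 5′ to 3′ on the strand of the gene, with motif matches in capitals.
Hbb-y, chr7:103853217-103853357: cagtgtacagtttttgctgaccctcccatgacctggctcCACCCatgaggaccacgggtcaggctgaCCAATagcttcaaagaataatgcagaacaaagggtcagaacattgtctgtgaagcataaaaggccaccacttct
Hba-a2, chr11:32296342-32296488: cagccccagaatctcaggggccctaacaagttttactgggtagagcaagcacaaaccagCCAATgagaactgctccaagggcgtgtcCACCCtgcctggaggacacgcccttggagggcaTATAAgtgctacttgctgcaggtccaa
Hbb-bs, chr7:103827929-103828011: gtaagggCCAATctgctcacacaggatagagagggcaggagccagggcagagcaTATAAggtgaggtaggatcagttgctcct
Hbb-bt, chr7:103813997-103814073: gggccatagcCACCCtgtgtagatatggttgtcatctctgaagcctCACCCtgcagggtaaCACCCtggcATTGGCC
Alas2, chrX:150547267-150547374: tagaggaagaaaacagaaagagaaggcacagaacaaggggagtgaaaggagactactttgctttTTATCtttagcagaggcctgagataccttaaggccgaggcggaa

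CACCC was found in the full window of 7 of 7 members, against 37.4% of the 32851 promoters in the table. CCAAT was found in 5 of 7 (24.5% of all promoters), TATAA in 5 of 7 (14.2%) and GATAA in 2 of 7, Hba-x and Alas2 (13.3%). The full windows run past the printed stretches, so some of these matches are not shown. In Hbb-bt the closing capitals CC are the start of a CCAAT match that the end of the printed stretch cuts off. For Hba-x and Hba-a1 all 150 bases lay in GENCODE exons of the gene, so nothing is printed. In exons lay also 67 bases for Hbb-bs, 73 for Hbb-bt and 42 for Alas2. In the printed stretches CACCC is found only in Hbb-y, Hba-a2 and Hbb-bt. A match describes letters in this window and is not a measured binding site. The promoters of Hba-a1 and Hba-a2 were identical over 297 of 297 aligned bases.

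Most of the set was lower after longer culture. In control libraries at 48 h against 3 h, 8 of 9 members fell at an edgeR quasi-likelihood adjusted p (Benjamini-Hochberg) under 0.05, beside 50.9% of the 16539 genes tested called in either direction and 25.4% called lower. The CPM values of 8 of 9 members lay wholly below those at 3 h, which held for 19.8% of the 15218 genes with a mean of at least 1 CPM. The median log2 fold change was -2.29 over the members and -0.01 over all genes tested. The exception was Hba-a2, described below. All 7 globins together made up 0.271% ± 0.0436 of reads at 3 h, 0.160% ± 0.0520 at 24 h and 0.0684% ± 0.0148 at 48 h (SD, n = 5 each).

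**Figure D1:**
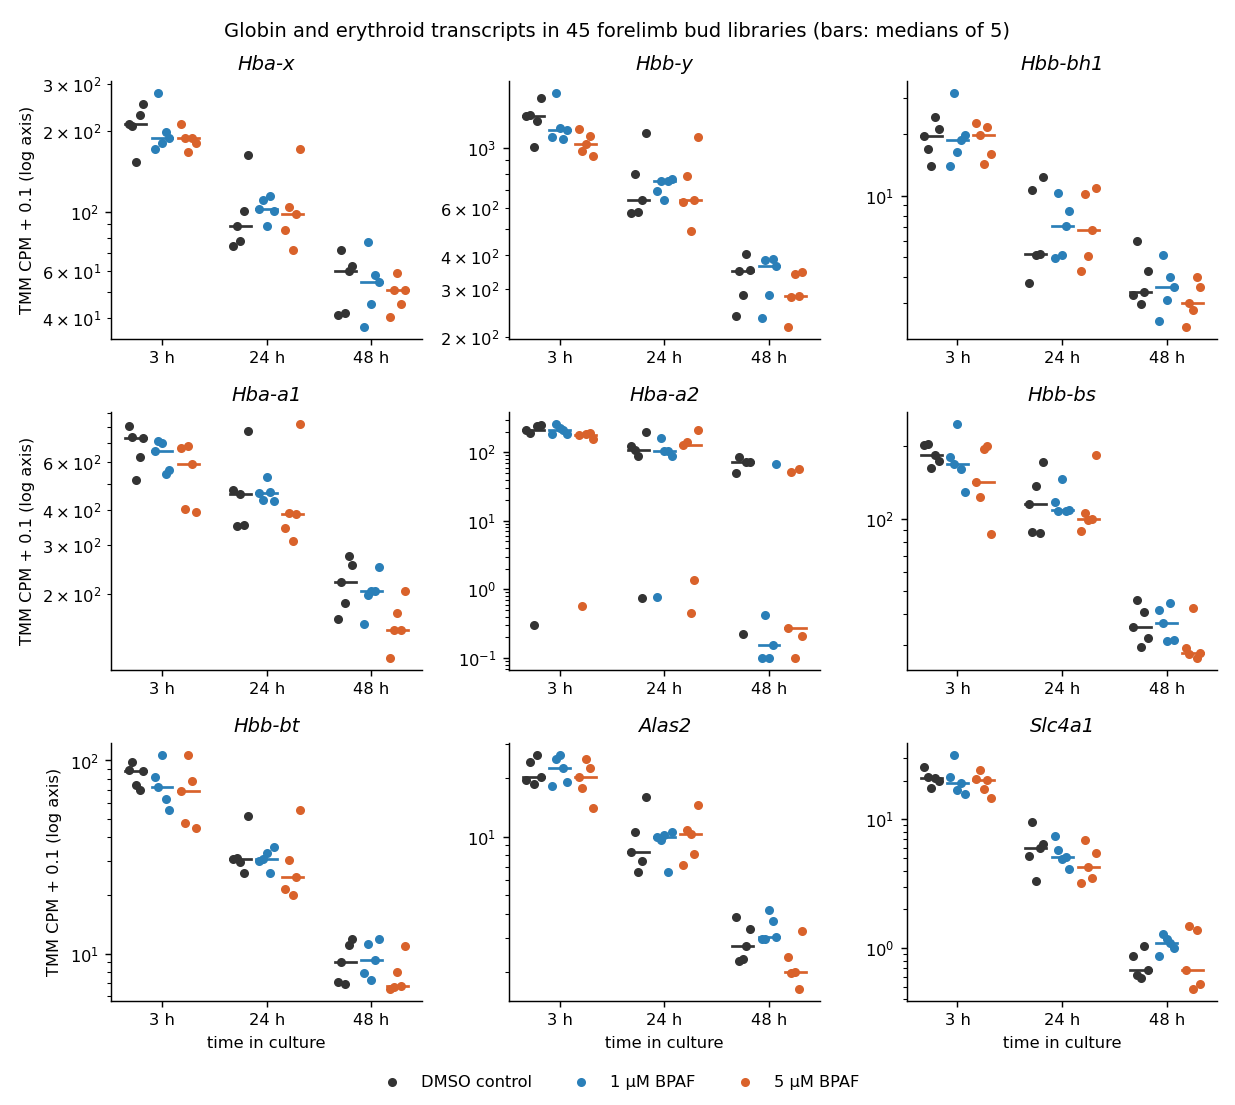
TMM-scaled CPM plus 0.1 (log axis) of the 9 genes in each library against time in culture, with DMSO control in black, 1 µM BPAF in blue and 5 µM BPAF in orange, 5 points per group and a bar at the median. Levels step down from 3 h to 48 h at every dose, while doses overlap within each time, and Hba-a2 has 14 libraries near 0.

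Per length, Hbb-y had the highest level of the members in control libraries at 3 h and at 48 h. In control libraries at 3 h its level was 2032 ± 295 CPM per kilobase of the deposited gene length, followed by Hba-a1 at 842 ± 143 (SD, n = 5). Next came Hba-a2 at 269 ± 154, Hbb-bs at 241 ± 23.6 and Hba-x at 225 ± 39.6 CPM per kilobase, which do not differ beyond their spread. Hbb-bt stood at 119 ± 16.1, Hbb-bh1 at 31.1 ± 6.38, Alas2 at 9.02 ± 1.37 and Slc4a1 at 4.26 ± 0.583 CPM per kilobase. At 48 h the order was kept apart from Hba-x (59.2 ± 14.5) and Hbb-bs (47.7 ± 8.67 CPM per kilobase), whose ranges overlapped, and Slc4a1 was lowest at 0.134 ± 0.0394.

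Among the embryonic chains, Hba-x encodes zeta globin, an alpha-type chain of primitive red cells. In control libraries Hba-x stood at 212, 208, 152, 229 and 253 CPM after 3 h, 74.4, 88.0, 77.6, 100.1 and 163 after 24 h, and 41.1, 72.1, 41.8, 59.8 and 62.7 after 48 h. The 48 h libraries were all below both earlier groups, and 1 library at 24 h, replicate 5, reached into the range at 3 h. The log2 fold change was -1.07 ± 0.17 (SE) from 3 to 24 h (edgeR adjusted p = 0.000101) and -0.87 ± 0.20 from 24 to 48 h (edgeR adjusted p = 0.00666). At 48 h the mean was 26.3% of that at 3 h.

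Hbb-y encodes the epsilon-type chain, the main embryonic beta chain of the mouse. Its control libraries held 1317, 1321, 1007, 1258 and 1528 CPM after 3 h, 573, 802, 579.9, 639.6 and 1137 at 24 h, and 239, 349, 286, 406 and 354 at 48 h. As for Hba-x, replicate 5 at 24 h overlapped the 3 h values and no 48 h library overlapped either group. The change was -0.79 ± 0.15 from 3 to 24 h (edgeR adjusted p = 0.000566) and -1.20 ± 0.17 from 24 to 48 h (edgeR adjusted p = 0.000206).

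Hbb-bh1 encodes the other embryonic beta chain, which precedes Hbb-y in primitive cells. Its levels were far lower, at 19.5, 16.9, 13.8, 24.0 and 20.99 CPM in the 3 h controls, 3.63, 10.6, 5.06, 5.07 and 12.3 at 24 h, and 3.17, 5.90, 2.85, 3.29 and 4.17 at 48 h. All 24 h values were below those at 3 h, while 24 h and 48 h values overlapped. From 3 to 24 h Hbb-bh1 fell by 1.37 ± 0.26 on the log2 scale (edgeR adjusted p = 0.000391). From 24 to 48 h the estimate was -0.93 ± 0.31 with an edgeR adjusted p of 0.0514, just outside the threshold, and DESeq2 gave 0.0176. Leaving out control 24 h replicate 1, 3 or 4 or control 48 h replicate 2 brought the edgeR adjusted p to 0.0201 to 0.0445, and so did leaving out the libraries with gut transcripts (0.0406). Hbb-bh1 reads made up 1.46% ± 0.242 of embryonic beta reads at 3 h and 1.18% ± 0.328 at 48 h.

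Among the adult chains, Hba-a1 encodes alpha globin. Its control values were 811, 738, 515, 622 and 734 CPM at 3 h, 476, 351, 458, 354 and 777 at 24 h, and 161, 220.2, 185, 272 and 253 at 48 h. Values at 3 h and 24 h overlapped, and the fall at that step was the smallest of the members called, -0.50 ± 0.17 (edgeR adjusted p = 0.0286). It was not called by DESeq2 (adjusted p = 0.135), without the libraries with gut transcripts (edgeR adjusted p = 0.122), or after leaving out any of control 3 h replicates 1, 2 and 5 or control 24 h replicates 1, 2, 3 and 4 (edgeR adjusted p of 0.0522 to 0.0776). From 24 to 48 h Hba-a1 fell by 1.15 ± 0.19 (edgeR adjusted p = 0.000624), with no overlap.

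Hbb-bs and Hbb-bt encode the adult beta chains. Hbb-bs held 202, 205, 162, 184 and 173 CPM in the 3 h controls, 115, 88.0, 136, 86.7 and 172 in those at 24 h, and 35.5, 45.8, 29.3, 40.7 and 32.0 at 48 h. Most of its fall came in the second day, with a log2 change of -0.63 ± 0.14 from 3 to 24 h (edgeR adjusted p = 0.00206) and -1.71 ± 0.17 from 24 to 48 h (edgeR adjusted p = 5.71e-06). Hbb-bt held 88.9, 97.9, 74.8, 70.2 and 88.2 CPM in the 3 h controls, 30.6, 31.2, 29.8, 26.2 and 51.5 in those at 24 h, and 7.06, 8.98, 6.84, 10.9 and 11.8 at 48 h. These 3 groups did not overlap, and Hbb-bt fell by 3.19 ± 0.13 from 3 to 48 h (edgeR adjusted p = 2.45e-12), to 10.9% of its mean at 3 h. The Hbb-bs mean at 48 h was 19.8% of that at 3 h. Their coding sequences in GENCODE M21 differ at 1 of 444 bases, counted from the A of the start codon and with the stop codon, at codon 139, which encodes alanine in both.
Hbb-bs, coding exon 3, chr7:103826678-103826707: ggtggctggagtggcCgctgccctggctca
Hbb-bt, coding exon 3, chr7:103812669-103812698: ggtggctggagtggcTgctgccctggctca
The capital marks C417T, Hbb-bs first. How reads that fit both copies were counted is not given in the sources used here, so the levels of Hbb-bs and Hbb-bt, and of Hba-a1 and Hba-a2, are uncertain to that extent.

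Alas2 encodes the first and rate-limiting enzyme of haem synthesis in red cells, and Slc4a1 the band 3 anion exchanger of the red cell membrane. Alas2 held 19.4, 24.1, 18.5, 26.1 and 20.2 CPM at 3 h, 8.21, 10.4, 6.44, 7.43 and 15.9 at 24 h, and 3.73, 2.18, 2.24, 2.62 and 3.22 at 48 h in control libraries, with no overlap between times. Its log2 change from 3 to 48 h was -2.92 ± 0.15 (edgeR adjusted p = 4.69e-11). Slc4a1 held 25.2, 21.2, 17.4, 20.7 and 19.6 CPM at 3 h, 5.11, 9.37, 3.22, 5.90 and 6.31 at 24 h, and 0.767, 0.513, 0.484, 0.940 and 0.577 at 48 h. No time overlapped another. At -4.98 ± 0.17 from 3 to 48 h (edgeR adjusted p = 2.35e-13), Slc4a1 had the largest fall of the 9 members, and its mean at 48 h was 3.15% of that at 3 h, resting on 8 to 15 reads per library.

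**Figure D2:**
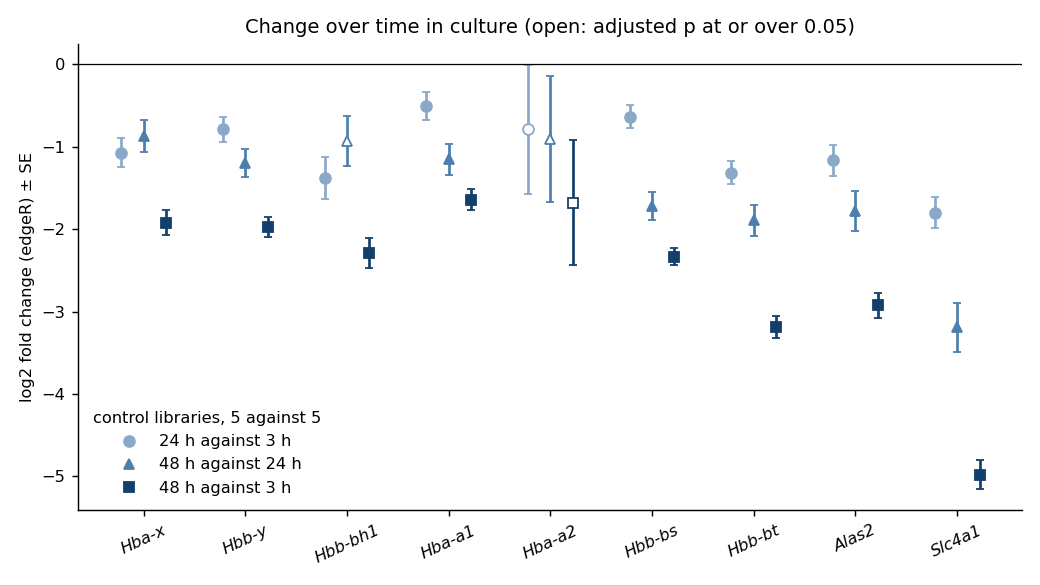
Log2 fold change with its standard error for each gene in control libraries, 24 h against 3 h (circles), 48 h against 24 h (triangles) and 48 h against 3 h (squares), 5 libraries per time. Filled symbols have an edgeR adjusted p under 0.05. Slc4a1 lies lowest at -4.98, and the open symbols are Hba-a2 and the second step of Hbb-bh1.

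Step by step, 8 of 9 members fell from 3 to 24 h, where 37.8% of all genes tested were called in either direction and 18.7% lower, and 4 of 9 had no overlap (13.2% of genes were lower without overlap). From 24 to 48 h 7 of 9 fell, beside 16.3% of all genes called and 6.57% called lower, and 7 of 9 had no overlap (5.3% of genes). These steps share the 24 h libraries. Without the 9 libraries with gut transcripts, 7, 8 and 8 members were called in the first step, the second step and over the whole time. The BPAF libraries were also lower at 48 h, given as a description. From 3 to 48 h the log2 ratio of mean CPM ran from -4.41 to -1.65 over the members at 1 µM and from -4.57 to -1.80 at 5 µM.

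The estimated fall differed in size among members, and shares of globin reads describe the make-up of the pool. In controls, embryonic chains made up 82.8% ± 1.79 of beta globin reads after 3 h, 82.8% ± 3.83 after 24 h and 87.7% ± 1.79 after 48 h (SD, n = 5). By library the values were 82.1%, 81.6%, 81.1%, 83.5% and 85.6% at 3 h and 85.1%, 86.6%, 88.9%, 88.8% and 89.1% at 48 h, so replicate 5 at 3 h lay above replicate 1 at 48 h and the groups overlapped at that point only. On the alpha side, Hba-x made up 23.6% ± 2.60 of Hba-x plus Hba-a1 reads at 3 h, 17.5% ± 3.60 at 24 h and 20.2% ± 2.65 at 48 h, and these 3 groups overlapped. Over all 7 globins the embryonic share was 57.4% ± 2.71 at 3 h and 54.9% ± 2.89 at 48 h, a difference of -2.56 percentage points that is within the spread of libraries. In a library, counting error of this share was small: the 95% Wilson interval of control 48 h replicate 1 (52.7%) ran from 51.7% to 53.6% and covers counting error only.

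Within the adult beta pair, Hbb-bt made up 30.6%, 32.4%, 31.5%, 27.6% and 33.8% of reads in the 3 h controls, 21.04%, 26.2%, 17.9%, 23.2% and 23.1% at 24 h, and 16.6%, 16.4%, 18.9%, 21.2% and 26.9% at 48 h. Every 24 h and 48 h library lay below every 3 h library. The alpha chains Hba-x and Hba-a1 made up 36.2% ± 1.53 of globin reads other than Hba-a2 at 3 h and 42.0% ± 1.14 at 48 h, without overlap. Per 1000 globin reads, Slc4a1 had 7.96 ± 1.04 reads at 3 h and 0.955 ± 0.311 at 48 h, without overlap. Alas2 had 8.33 ± 1.55 and 4.17 ± 1.65, with overlap. These shares are given as descriptions, with no test.

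**Figure D3:**
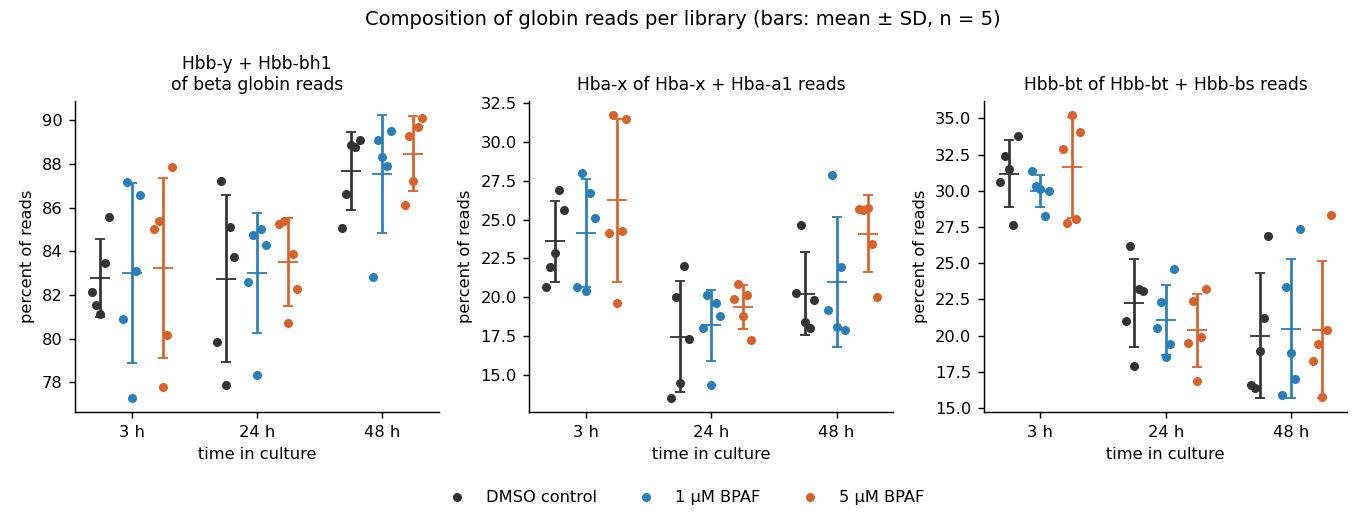
Percent of reads per library against time in culture for the embryonic share of beta globin (left), Hba-x within Hba-x plus Hba-a1 (middle) and Hbb-bt within the adult beta pair (right), with dose by colour, points for libraries and bars for the mean ± SD of 5. The axes do not start at 0. The control mean of the embryonic beta share is 82.8% at 3 h and 87.7% at 48 h, and that of the Hbb-bt share is 31.2% at 3 h and 19.99% at 48 h.

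Hba-a2, the second adult alpha globin gene, was present or all but absent. In 31 of 45 libraries it held 845 to 4786 reads and made up 15.9% to 28.2% of adult alpha globin reads (median 23.8%). In the other 14 libraries it held 0 to 19 reads, at most 0.327% of adult alpha reads. In controls Hba-a2 held 211, 193, 0.203, 243 and 251 CPM at 3 h, 122, 109.8, 86.8, 0.649 and 200.9 at 24 h, and 50.5, 85.0, 0.121, 71.6 and 71.3 at 48 h, so 1 library of each group stood near 0: replicates 3, 4 and 3. At 1 µM, 0, 1 and 4 libraries stood near 0 at 3, 24 and 48 h, and at 5 µM 1, 2 and 3. By time this makes 2, 4 and 8 libraries, and by dose 3, 5 and 6 for control, 1 µM and 5 µM. No test was made on these libraries, since they are not groups of the study.

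Hba-a1 did not stand apart in the libraries without Hba-a2. Per 100 Hbb-y reads, Hba-a1 had 41.3 to 71.6 reads (median 57.1) in the 14 libraries and 42.0 to 83.1 (median 57.7) in the other 31. The coding sequences of Hba-a1 and Hba-a2 differ at 1 of 429 bases, at codon 127, with aspartate from both.
Hba-a1, coding exon 3, chr11:32284328-32284357: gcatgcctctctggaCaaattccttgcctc
Hba-a2, coding exon 3, chr11:32297145-32297174: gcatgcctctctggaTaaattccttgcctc
The capital marks C381T, Hba-a1 first, counted from the A of the start codon. The part that counting of shared reads has in the pattern was not tested.

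**Figure D4:**
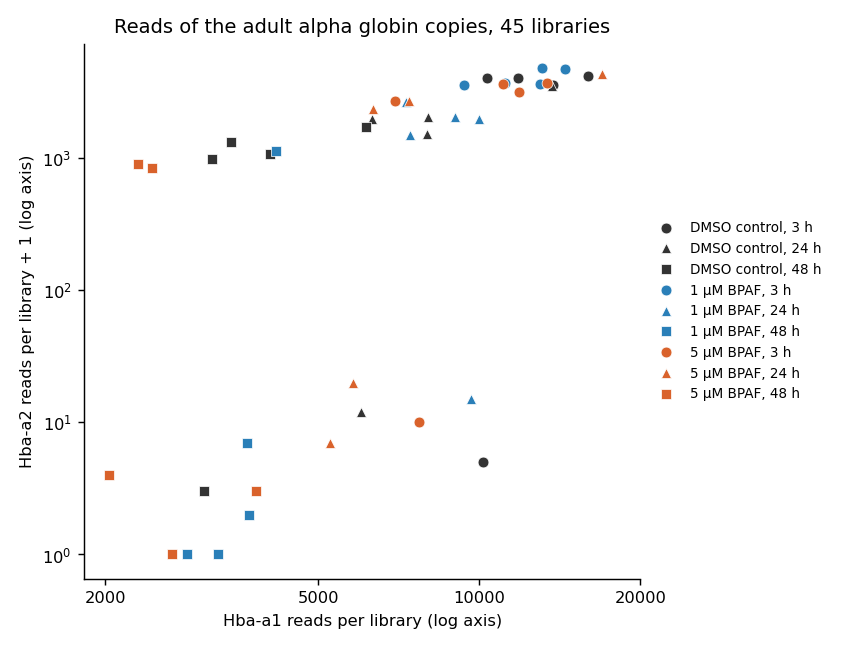
Hba-a2 reads plus 1 against Hba-a1 reads per library (both log axes), with dose by colour and time by symbol. An upper band of 31 libraries follows Hba-a1, and 14 libraries lie at 0 to 19 Hba-a2 reads over the same range of Hba-a1.

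With that spread, the change of Hba-a2 over time was not called: -1.68 ± 0.76 from 3 to 48 h (edgeR adjusted p = 0.074). Without control 3 h replicate 3, which held 4 Hba-a2 reads, it was -2.01 (edgeR adjusted p = 0.00407). This was the only call when each of the 10 libraries was left out in turn. The estimates ran from -2.01 to -1.36, with an edgeR adjusted p of up to 0.139. Control 48 h replicate 3 held 2 Hba-a2 reads. With both adult alpha copies summed, 8 of 8 rows were called lower in that comparison.

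With BPAF, 1 call was made among the members over the 6 comparisons with control, Hba-a1 at 5 µM and 48 h, and its groups overlapped. At 1 µM, 0 of 9 members were called at 3 h, 24 h or 48 h by edgeR and 0 by DESeq2, and 0 had an unadjusted edgeR p under 0.05. Over all genes, 0.0% were called by edgeR at 3 h, 0.00608% at 24 h and 0.0% at 48 h. Away from Hba-a2, the log2 differences ran from -0.16 to 0.07 over the members at 3 h and 24 h. Slc4a1 at 48 h stood at 0.58 ± 0.32 (edgeR adjusted p = 0.998), with 0.767, 1.19, 1.07, 0.993 and 0.899 CPM at 1 µM against 0.484 to 0.940 in controls. The 1 µM and 5 µM comparisons at a given time share their 5 control libraries.

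At 5 µM, 0 of 9 members were called at 3 h by edgeR or DESeq2 (0.18% of all genes by edgeR), although all 9 estimates were below 0. Hbb-y and Hba-a1 had an unadjusted edgeR p under 0.05. Hbb-y held 1179, 976, 1038, 1105 and 936 CPM at 5 µM, of which 976 and 936 lay below 1007, the lowest control at 3 h, and the other 3 within the control range. The difference of Hbb-y was -0.30 ± 0.08 (edgeR adjusted p = 0.205), and it passed the threshold once control 3 h replicate 3 was left out (-0.37, edgeR adjusted p = 0.0281) or with no filter on low counts (edgeR adjusted p = 0.0327). For Hba-a1 the values were 670.5, 404, 682, 588 and 393 CPM and the difference was -0.32 ± 0.14 (edgeR adjusted p = 0.524). Hbb-bs stood at -0.31 ± 0.15 (edgeR adjusted p = 0.6003).

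At 24 h, 0 of 9 members were called at 5 µM by either tool, 0 had an unadjusted edgeR p under 0.05, and 1.57% of all genes were called by edgeR. The 5 µM library of replicate 5 stood above the rest there, with 824 CPM of Hba-a1 against 309.9 to 393 in the other 4. It is also the library of that group with gut transcripts. Control 24 h replicate 5 held 777 CPM of Hba-a1 against 351 to 476 in the other 4, and 0.341 CPM of the gut genes. The part of gut tissue in these high values was not tested. The median log2 difference over the members was -0.05, and these libraries moved it: it was -0.28 without 5 µM replicate 5, 0.16 without control replicate 5 and -0.35 without the libraries with gut transcripts, with 0 members called by edgeR in each. Both high libraries carry replicate number 5, and their deviations from the group means correlated at 0.485. Each of these fits kept 1 of them and dropped the other. The libraries with gut transcripts here were control replicate 1 and 5 µM replicate 5.

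At 48 h, 1 of 8 members tested was called at 5 µM, beside 7.16% of all genes in either direction and 4.42% lower. Hba-a1 was lower, with 117, 147, 169.8, 147 and 204 CPM at 5 µM against 161, 220.2, 185, 272 and 253 in controls. The groups overlapped: 2 BPAF libraries lay within the control range and 3 below it. The log2 difference was -0.49 ± 0.14 (edgeR adjusted p = 0.0396). DESeq2 did not call it (-0.48, adjusted p = 0.0976), nor did the edgeR fit of all 45 libraries (-0.48, adjusted p = 0.152), and the call was lost on leaving out any of control replicates 2, 4 and 5 or 5 µM replicates 1, 2, 3 and 4 (edgeR adjusted p of 0.0633 to 0.121). Without the libraries with gut transcripts Hba-a1 stood at -0.55 (edgeR adjusted p = 0.0358). A block on the replicate number gave an edgeR adjusted p of 0.00077, and Hba-a1 was lower at 5 µM in every same-numbered pair. The labels do not say what a shared number means. With the reads of both copies added (Hba-a1 + Hba-a2) the difference was -0.63 ± 0.16 (edgeR adjusted p = 0.0245), and this sum includes the 3 libraries at 5 µM and 1 control library that lacked Hba-a2.

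The other 7 members tested at 48 h were not called, all with estimates below 0. Hbb-bs held 28.9, 27.3, 42.5, 26.3 and 27.6 CPM at 5 µM, and 4 of these 5 lay below 29.3, the lowest control, leaving replicate 3 apart. Its difference was -0.28 ± 0.14 (edgeR adjusted p = 0.271), and -0.41 without 5 µM replicate 3 (edgeR adjusted p = 0.0427). Hbb-y stood at -0.17 ± 0.13, Hba-x at -0.19 ± 0.14, Hbb-bt at -0.26 ± 0.18, Hbb-bh1 at -0.37 ± 0.23 and Alas2 at -0.39 ± 0.25 (edgeR adjusted p of 0.433 to 0.536 for these 5). Slc4a1, with 6 to 23 reads per 5 µM library, did not pass the filter on low counts. No member of the set had groups without overlap in any BPAF comparison. Over all genes with a mean of at least 1 CPM, groups did not overlap in either direction for 0.453%, 0.453% and 0.591% at 1 µM and for 1.78%, 3.71% and 7.75% at 5 µM (3, 24 and 48 h).

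**Figure D5:**
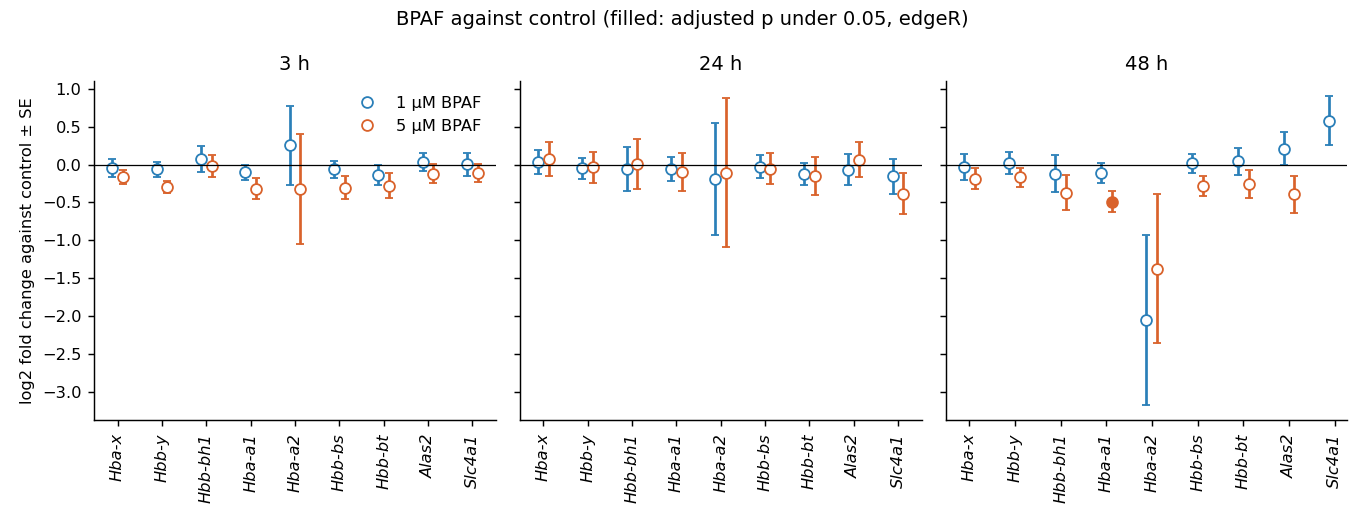
Log2 fold change against control with its standard error at 1 µM (blue) and 5 µM (orange) for the 9 genes at 3, 24 and 48 h, 5 libraries per group. Only Hba-a1 at 5 µM and 48 h is filled (-0.49, edgeR adjusted p = 0.0396), Hba-a2 has the widest errors, and Slc4a1 has no 5 µM value at 48 h.

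The BPAF difference was also compared between times. For 5 µM at 48 h minus 3 h, 0 of 9 members were called by edgeR or DESeq2, 0 had an unadjusted edgeR p under 0.05, and 2.8% of the 17558 genes tested were called. Hba-a1 gave -0.16 ± 0.23 (edgeR adjusted p = 0.855). A p above the threshold does not show that the differences were equal.

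The make-up of the pool at 48 h and 5 µM is of interest because the adult alpha chain was the member called. The embryonic share of all globin reads was 61.4% ± 2.73 at 5 µM against 54.9% ± 2.89 in controls, and the values overlapped. With Hba-a2 left out, which was decided after its values were seen, the share was 63.1%, 64.8%, 64.6%, 64.9% and 62.3% at 5 µM against 58.1%, 60.8%, 59.9%, 59.1% and 58.6% in controls, without overlap. Alpha chains made up 38.1% ± 1.09 of the same reads at 5 µM and 42.0% ± 1.14 in controls, also without overlap. Hba-x made up 24.1% ± 2.49 of Hba-x plus Hba-a1 reads against 20.2% ± 2.65, with overlap. These 4 shares all count Hba-a1, the member called, and are not independent of its difference. The embryonic share of beta globin was 88.5% ± 1.73 against 87.7% ± 1.79, within the spread. At 1 µM the share without Hba-a2 was 60.6% ± 3.64, overlapping both. These shares were not tested.

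Within groups, pairs of members tracked each other to different degrees. Across 45 libraries, after subtracting group means of log2 CPM, Pearson correlations were highest for Hba-x with Hbb-y (0.90), both embryonic, and Hba-a1 with Hbb-bt (0.86), both adult, of the 36 pairs. With Hba-a2 left out, globin pairs of the same class ran from 0.66 (Hba-a1 with Hbb-bs) to 0.90. Embryonic with adult pairs ran from 0.16 (Hbb-bh1 with Hbb-bs) to 0.69 (Hbb-y with Hbb-bt) and 0.76 (Hbb-y with Hba-a1). Most of these lay below the lowest pair of the same class, but the ranges overlapped. The adult pair Hba-a1 with Hba-a2 stood at 0.45. Slc4a1 stood at 0.27 with the summed globins and at -0.02 with Hbb-bs. The points share libraries, depth and the scaling. By the same measure, the genes outside the set most like the summed globins within groups were Tmem176a (0.63), Aldh9a1 (0.63), Lin37 (0.62), Hsd3b6 (0.62), Mta3 (0.62) and AI837181 (0.61), of 13516 ranked. Without subtracting group means they were Hsd3b6 (0.95), Smarcd1 (0.94), Nnat (0.94), Mab21l2 (0.94), Lmx1b (0.94) and Tes (0.94), over 45 libraries that differ mostly by time. Hsd3b6, a steroid dehydrogenase, appears in both and went from 14.4 to 1.85 CPM between control 3 h and 48 h.

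Other red cell genes were read from lists beside the set. Of the red cell membrane and cytosol list, 22 of 30 genes were tested in control libraries at 48 h against 3 h, 16 fell and 5 rose (median log2 fold change -0.73, against -0.01 over all genes). Over all genes tested there, 50.9% were called in either direction and 25.4% lower. Those with the smallest p were Aqp1, a water channel (2.02 ± 0.08), Epb41, protein 4.1 of the membrane skeleton (-0.80 ± 0.05), Tmod1, which caps actin filaments (2.08 ± 0.15), and Car2, a carbonic anhydrase (-1.83 ± 0.15), all with an edgeR adjusted p of 1.98e-08 or less. Aqp1 and Tmod1 are also made by vessel or muscle cells. Chosen after their values were seen, the red cell genes Epb42 and Kel had means of 1.94 and 2.34 CPM at 3 h and 0.0754 and 0.152 at 48 h. At 48 h, 3 list genes, Car1, Trim58 and Tspo2, had no read in the 5 control libraries. Of the 28 list genes in the tables, 6 already had means under 1 CPM in control libraries at 3 h, and 13 did at 48 h.

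Haem synthesis genes outside Alas2 moved little in the median, with more falls than rises. Of 16 tested, 7 fell and 1 rose from 3 to 48 h (median -0.16). In that comparison 25.4% of all genes were called lower and 50.9% in either direction. Cpox rose by 0.41 ± 0.06, and Urod (-0.36 ± 0.07) and Uros (-0.30 ± 0.09) fell, each with an edgeR adjusted p of 0.00705 or less. All are expressed in most cells. Of 13 tested erythroid factors and receptors, 6 fell and 4 rose (median -0.24), beside 25.4% of all genes called lower and 50.9% in either direction. They were led by Bcl11a (-0.96 ± 0.06), Tal1 (-1.53 ± 0.17), Sox6 (0.69 ± 0.08) and Zbtb7a (0.54 ± 0.07), with edgeR adjusted p of 2.64e-06 or less. Bcl11a and Sox6 are repressors of embryonic globin genes that many other cells of the limb also make. Gata1, the master factor of red cell progenitors, held 0.669 CPM and Klf1 0.436 CPM at 3 h.

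Markers of vessels and macrophages moved over the same time. For the lists that follow, 50.9% of all genes tested were called in either direction from 3 to 48 h and 25.4% lower. Of 19 endothelial genes tested, 14 fell and 2 rose from 3 to 48 h. Their summed level ran from 656 to 745 CPM at 3 h and from 523 to 579.7 at 48 h in control libraries, with none of the 19 at 0. Plvap, of the fenestrated endothelium, fell by 2.53 ± 0.10, with Tek (-1.28 ± 0.15), Emcn (-0.9999 ± 0.12) and Gpihbp1 (1.98 ± 0.25) next by p, all with an edgeR adjusted p of 3.74e-06 or less. Of 18 macrophage genes, 14 rose and 0 fell, and their sum went from 138 to 161 CPM at 3 h to 355 to 455 at 48 h, with none at 0. Lyz2 (4.55 ± 0.13), C1qb (1.97 ± 0.12), Ctss (2.27 ± 0.15) and C1qa (1.88 ± 0.12) had the smallest p among them (edgeR adjusted p of 7.78e-10 or less). Of 12 genes of haem and iron recycling tested, 9 rose and 0 fell, among them the iron transporter Slc11a1 (3.29 ± 0.16), the iron exporter Slc40a1 (0.93 ± 0.08), the haem-haemopexin receptor Lrp1 (0.50 ± 0.05) and haem oxygenase Hmox1 (0.75 ± 0.11), with edgeR adjusted p of 2.85e-05 or less. The part of vessel loss or macrophages in the fall of globin transcripts was not tested.

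The same lists were read with 5 µM BPAF at 48 h, where 7.16% of all genes tested were called in either direction and 4.42% lower. There 4 of 17 red cell list genes tested were lower and 0 higher: Tmod1 (-1.76 ± 0.14), Sptb (-1.44 ± 0.17), Ank1 (-0.78 ± 0.10) and Tfrc (-0.31 ± 0.09), with edgeR adjusted p of 0.0499 or less. Sptb, Ank1 and Tmod1 are membrane skeleton genes that muscle also makes, and all 4 had risen from 3 to 48 h in controls (Sptb by 0.78 ± 0.17, Ank1 by 1.17 ± 0.10, Tfrc by 0.76 ± 0.09, edgeR adjusted p of 0.000697 or less). Haem synthesis genes gave 0 calls of 16 by edgeR. Macrophage genes were lower for 10 of 18, led by Lyz2 (-1.05 ± 0.10), Csf1r (-1.19 ± 0.12), C1qa (-0.80 ± 0.10) and Cx3cr1 (-1.22 ± 0.16), with a summed level of 256 to 295 CPM against 355 to 455 in controls. Endothelial genes were lower for 5 of 19, led by Cdh5 (-0.51 ± 0.08), Pecam1 (-0.38 ± 0.10), Mmrn2 (-0.43 ± 0.11), and Flt1 (-0.44 ± 0.12), with a sum of 427 to 511 CPM against 523 to 579.7. Of the recycling list, Hmox1 alone was called, at 0.61 ± 0.11 (edgeR adjusted p = 0.00109). At 24 h and 5 µM, where no member was called, Tmod1 (-0.68 ± 0.11), Tfrc (-0.43 ± 0.10), Cdh5 (-0.41 ± 0.08), Flt1 (-0.58 ± 0.11), Lyz2 (-0.64 ± 0.12), Cx3cr1 (-1.15 ± 0.19) and Plek (-0.57 ± 0.12) were already lower (edgeR adjusted p of 0.0392 or less). The part of these cells in the lower Hba-a1 was not tested.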

How the data were processed

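The 9 genes and the gene lists were chosen with earlier results of these data known. Values are unnormalized counts of reads for each gene, per the file headers, in 9 deposited tables that each set a pair of groups side by side; 180 other per-sample columns, normalized or FPKM, were not used. CASAVA 1.8, DESeq2, HTSeq 0.6.1 and STAR 2.5 are named, with build mm10, per the submitters' processing notes; strand and the counting of reads that fit several genes are not given in the sources used here. Counts were joined by gene identifier, and a gene absent from a table was read as 0 (11.7% of values). Each comparison was fitted over all genes in edgeR 4.0.16 (R 4.3.3) with TMM scaling, filterByExpr (minimum count 10, minimum total 15), the quasi-likelihood F-test and Benjamini-Hochberg adjustment at 0.05, on the libraries compared. Fold changes are log2 with their SE. Alternatives were DESeq2 1.42.0, RLE size factors, no filter, a replicate block, all 45 libraries in 1 fit, both adult alpha copies summed and leaving out each replicate in turn; leaving out the libraries with gut transcripts (at least 20 CPM) was chosen after seeing the data. Correlations used log2 of CPM plus 0.5. All 9 genes are named, with up to 4 genes called with the smallest p of each list at 48 h against 3 h and at 5 µM and 48 h, and the 6 genes most like the summed globins. Some genes under this rule are not reported here. The fit was tested on simulated counts. Pairing by replicate number was taken as met only where all 5 same-numbered pairs correlated at over 0.1. This held for 1 µM against control at 24 h (0.125 to 0.404). In the other comparisons with control 4 of 5 pairs passed, or 3 for 1 µM at 48 h, and between control times 1 or 2. The rule does not exclude pairing where it was not met. For 1 µM at 48 h, replicates 1 and 2 gave -0.133 and 0.0635, and their numbers are in doubt because of the exchanged library codes.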

Additional observations from a re-analysis of the deposited data

Results flagged for a closer look

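In 12 of 81 groups of 5 libraries, 1 library stood far from the other 4 (a gap over 0.71 of the range of the group, which chance gives in about 1 in 20 groups). Hba-x reached 163 CPM in control 24 h replicate 5, against 74.4 to 100.1 in the others, and 278 CPM in 1 µM 3 h replicate 2, against 171 to 197. Hbb-y reached 1603 CPM in that same library, against 1079 to 1188. Hbb-bt stood at 51.5 CPM in control 24 h replicate 5, against 26.2 to 31.2. In 5 µM 24 h replicate 5, Hba-a1 stood at 824 CPM, against 309.9 to 393, and Hbb-bs at 184 CPM, against 88.3 to 106. Hbb-bs also stood apart at 145 CPM in 1 µM 24 h replicate 3, against 107 to 117, and at 42.5 CPM in 5 µM 48 h replicate 3, against 26.3 to 28.9. Alas2 was low in 1 µM 24 h replicate 4, at 6.47 CPM against 9.46 to 10.4.

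Hba-a2 gave the remaining 3: 0.203 CPM in control 3 h replicate 3 against 193 to 251, 0.471 CPM in 5 µM 3 h replicate 2 against 154 to 194, and 67.4 CPM in 1 µM 48 h replicate 5 against 0 to 0.324. In the last group the library with the gene stood apart, since the other 4 lacked it.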

How the results depend on the processing

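The counts of members called in control comparisons stayed within 7 to 9 under every alternative run. Leaving out libraries gave 7 to 8 members (24 h against 3 h), 7 to 8 (48 h against 24 h) and 8 to 9 (48 h against 3 h). At 1 µM every alternative called 0 members, as at 5 µM and 24 h and for the change of the 5 µM difference between times. At 5 µM and 3 h, dropping the filter on low counts gave 1 member (Hbb-y), and leaving out libraries 0 to 1. At 5 µM and 48 h, DESeq2 and the fit of all 45 libraries gave 0 members, and leaving out libraries 0 to 1. With the replicate number as a block, 9 members were called at 48 h against 3 h, with Hba-a2 at -1.69 (edgeR adjusted p = 5.98e-08), and Hba-a1 at 5 µM and 48 h had an edgeR adjusted p of 0.00077. There Hba-a1 was lower in 5 of 5 same-numbered pairs, and each library correlated best with its own number (0.0582 to 0.329, over 0.1 in 4 of 5), a hint of pairing from the data and not the design. The block changed no other count of members except Hbb-bh1 in 48 h against 24 h (-0.85, edgeR adjusted p = 0.0102). Of 648 alternatives for 39 gene results, 614 kept direction and side of the threshold, 18 lost the call, 15 gained it and 1 changed sign: Hba-a1 in the change of the 5 µM difference, at -0.34 to 0.024 on leaving out each replicate number, the highest without replicate 4. The embryonic share (control 48 h minus 3 h) was 4.92 percentage points for beta globins alone against -2.56 for all, and -3.82 to -1.69 on leaving out libraries; for 5 µM minus control at 48 h it was 0.785 for beta globins alone against 6.56 for all, and 5.76 to 7.81. The cause of these changes was not tested. Depth limits Slc4a1 at 48 h, with 6 to 23 reads per library.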

Other observations

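Of 8 other globins in a list, 7 were in the tables and 5 of these had means under 1 CPM in control libraries at every time. Among those 5, Hbb-bh0 of the beta cluster had means of 0.699 CPM at 3 h and 0.212 at 48 h, Hbq1b of the alpha cluster 0.451 and 0.122, and Hbq1a 0.202 and 0.0747. Myoglobin (Mb), the oxygen store of muscle, rose from 2.12 ± 0.923 to 5.18 ± 1.46 CPM between 3 and 48 h in control libraries (SD, n = 5; log2 fold change 1.29 ± 0.28, edgeR adjusted p = 0.000896). Cytoglobin (Cygb), found in fibroblasts, rose from 9.35 ± 1.94 to 14.1 ± 3.03 CPM (0.60 ± 0.16, edgeR adjusted p = 0.0046). Neither was called with 5 µM BPAF at 48 h.

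Megakaryocyte and platelet genes were scarce. Of 13 genes, 9 stood under 1 CPM at 3 h and 10 at 48 h in control libraries, and the summed level was 14.96 to 22.9 CPM at 3 h and 17.5 to 23.7 at 48 h. Of the 4 tested, platelet factor 4 (Pf4) fell by 1.29 ± 0.36 (edgeR adjusted p = 0.0065) and Plek rose by 1.03 ± 0.14 (edgeR adjusted p = 6.94e-06). Plek is also made by macrophages.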
